A study of Rattus norvegicus with 9 samples.

Results

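The 10 genes described here were taken by their symbols from the deposited table of 20194 rat genes, as a named set of mast cell genes. They comprised the 6 granule proteases Cpa3, Cma1, Mcpt2, Mcpt4, Tpsab1 and Tpsb2, the 3 receptor genes Kit, Fcer1a and Ms4a2, and Hdc, the histamine-forming enzyme. All 10 were in the table, and 5 of them (Cpa3, Cma1, Tpsb2, Kit and Hdc) reached an FPKM of 1 in 1 or more of the samples, the filter of the study. FPKM is the number of fragments scaled by gene length and by library size. The question was whether the protease genes and the receptor genes moved together.

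Mast cells are immune cells of connective tissue that keep proteases and histamine in granules and release them when stimulated. Chymases, tryptases and carboxypeptidase make up most of the granule protein. The cells grow in response to stem cell factor through the receptor Kit, and bind IgE through a receptor built from an alpha, a beta and a gamma chain. In peripheral nerves and around ganglia, mast cells lie mainly in the connective tissue sheaths, and Kit is also expressed by some sensory neurons.

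RNA of the dorsal root ganglion (DRG) was sequenced in male Sprague-Dawley rats aged 8 to 10 weeks, with 3 libraries in each of 3 groups: sham, spared nerve injury (SNI) and SNI with G15 (SNI_G15). SNI is a rat model of neuropathic pain, and G15 is an antagonist of the G protein-coupled oestrogen receptor, given intrathecally at 1.8 μg/μl in 1 μl. All groups share the intrathecal catheter, which the labels place on day 5 and follow by 24 h of injection, with 2% DMSO as the drug solvent by the labels, and both groups without G15 are labelled as its controls. No group is a genetic model. The methods of the study name 3 rats for sequencing, an animal count in its supplement is larger, and neither says whether a library came from 1 rat or from pooled ganglia, so p-values measure the spread between these libraries.

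Library totals lay between 18484557 and 18756736 estimated reads. The labels give DRG as the tissue, although their extraction text names another cell type. All 11 neuronal markers listed passed the FPKM filter, at a summed 27290 to 35730 CPM in a library (reads scaled by the library total), against 252 to 585 CPM for 11 macrophage markers. No library stood apart from its group in these sums. In bulk RNA, fewer cells of a type and less RNA per cell cannot be told apart, and this holds for every gene below.

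Promoter windows are shown for the protease genes whose RNA was higher with G15, with a related chymase gene, Mcpt1l1, that is described after the members. The sequences are RefSeq's, on the build GRCr8, and cover 250 bases before and 50 bases after the annotated start, read on the gene's strand. Capitals mark letters that match AGATAA or TGATAA, and likewise AGATAG or TGATAG, on either strand, the letters bound by GATA factors, which are known regulators of mast cell genes. The Cpa3 window lies at chr2:104673188-104673487 (minus strand), that of Cma1 at chr15:33390084-33390383 (minus strand) and that of Mcpt1l1 at chr15:33876846-33877145 (minus strand). The tryptase windows lie at chr10:14867253-14867552 (minus strand) for Tpsab1 and chr10:14886060-14886359 (plus strand) for Tpsb2.
Cpa3: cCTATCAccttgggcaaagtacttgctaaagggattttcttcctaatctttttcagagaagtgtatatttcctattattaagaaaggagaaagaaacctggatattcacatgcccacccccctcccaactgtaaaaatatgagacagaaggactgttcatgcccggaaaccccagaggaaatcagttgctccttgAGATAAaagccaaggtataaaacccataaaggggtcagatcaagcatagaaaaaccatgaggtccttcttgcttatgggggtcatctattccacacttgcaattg
Cma1: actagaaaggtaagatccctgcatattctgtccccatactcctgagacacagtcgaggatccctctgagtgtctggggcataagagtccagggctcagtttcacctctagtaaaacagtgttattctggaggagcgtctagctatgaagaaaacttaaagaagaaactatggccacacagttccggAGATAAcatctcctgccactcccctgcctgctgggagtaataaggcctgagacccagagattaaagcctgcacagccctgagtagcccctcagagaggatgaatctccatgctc
Mcpt1l1: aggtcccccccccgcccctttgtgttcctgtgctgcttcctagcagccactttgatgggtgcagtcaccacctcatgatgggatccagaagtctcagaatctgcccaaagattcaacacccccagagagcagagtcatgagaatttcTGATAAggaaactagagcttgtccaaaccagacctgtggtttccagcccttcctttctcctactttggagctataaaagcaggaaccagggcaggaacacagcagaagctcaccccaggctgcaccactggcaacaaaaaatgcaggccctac
Tpsab1: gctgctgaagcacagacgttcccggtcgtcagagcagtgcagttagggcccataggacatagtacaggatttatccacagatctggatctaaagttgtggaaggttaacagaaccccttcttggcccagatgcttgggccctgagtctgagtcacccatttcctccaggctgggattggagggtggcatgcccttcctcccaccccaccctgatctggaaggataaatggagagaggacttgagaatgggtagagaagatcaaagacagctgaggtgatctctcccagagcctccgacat
Tpsb2: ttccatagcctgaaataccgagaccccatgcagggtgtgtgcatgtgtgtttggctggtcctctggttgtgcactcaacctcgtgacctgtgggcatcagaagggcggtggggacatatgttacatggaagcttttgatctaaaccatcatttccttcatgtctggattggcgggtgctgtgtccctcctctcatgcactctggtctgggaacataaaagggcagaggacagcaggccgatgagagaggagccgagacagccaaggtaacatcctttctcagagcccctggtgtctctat

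Of the 10 members, 9 had a window by gene identifier, and Ms4a2 did not. GATA letters were found in 5 of these 9 windows (Cpa3, Cma1, Mcpt2, Mcpt4 and Fcer1a), against 30.3% of all 33469 windows. The windows of Tpsab1, Tpsb2, Kit and Hdc held none, so 2 of the 4 members higher with G15 than with SNI alone held the letters. The letters CANNTG, an E-box, were in 72.1% of all windows and in 7 of these 9, with none in Cma1 or Hdc. A match in letters is not a measured binding site.

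Of the 6 protease genes, 4 were measurable, and each was highest in all libraries of the SNI_G15 group. Cpa3 (gene ID 54242) encodes carboxypeptidase A3, which trims peptides in the granule. It had 10, 7 and 8 estimated reads in the sham libraries, 8, 3 and 4 in the SNI libraries and 29, 26 and 27 in the SNI_G15 libraries. Sham and SNI values overlapped, and the SNI_G15 values lay apart from both.

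Cma1 (gene ID 25627), a chymase, had 10, 8 and 5 reads in sham, 4, 3 and 3 in SNI and 31, 20 and 36 in SNI_G15. None of the 3 groups overlapped another. Its mean FPKM was 0.430 ± 0.141 in sham, 0.187 ± 0.0289 in SNI and 1.62 ± 0.448 in SNI_G15 (mean ± SD, n = 3).

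The tryptase genes Tpsab1 (gene ID 54271) and Tpsb2 (gene ID 29268) encode trypsin-like granule enzymes and are neighbours on chromosome 10. Tpsab1 had 5, 5 and 8 reads in sham, 3, 1 and 1 in SNI and 11, 16 and 14 in SNI_G15. Tpsb2 had 8, 8 and 6 reads in sham, 4, 1 and 3 in SNI and 22, 19 and 24 in SNI_G15. For both genes the 3 groups did not overlap, with SNI lowest and SNI_G15 highest.

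The other proteases were at the detection limit. Mcpt2 (gene ID 29266, named Mcpt1 in RefSeq's GRCr8 table), the chymase typical of mucosal mast cells in the rat, had at most 2 reads in a library. Mcpt4 (gene ID 54270) had 0.98 estimated reads in SNI 1 and was at 0 in the other 8 libraries. No fold is given for either, since both lay at or under 3 reads per library in every group, the limit that a count of 0 allows.

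**Figure D1:**
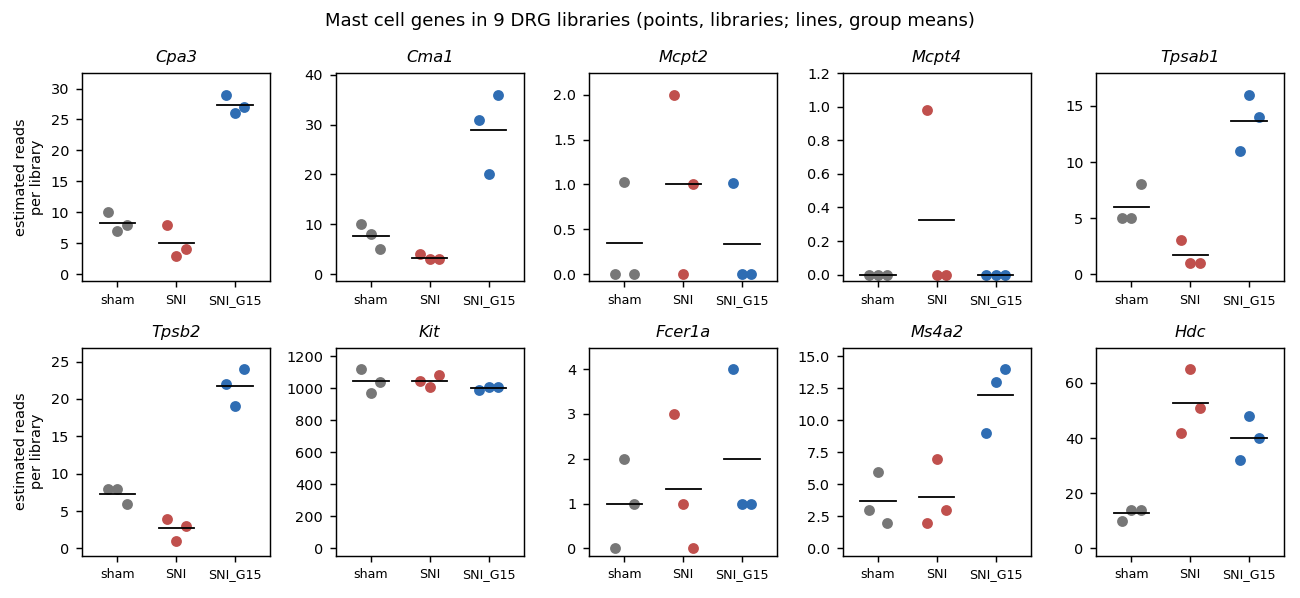
Estimated reads per library (vertical axes, each scaled to its gene) of the 10 mast cell genes in sham, SNI and SNI_G15 libraries; points are libraries and lines are means of 3. Cpa3, Cma1, Tpsab1, Tpsb2 and Ms4a2 have their highest 3 values in SNI_G15, Kit lies between 972 and 1121 reads in all libraries, and Hdc is lowest in sham.

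Kit (gene ID 64030) was by far the most abundant member. It had 1121, 972 and 1037 reads in sham, 1045, 1007 and 1083 in SNI and 992, 1010 and 1010 in SNI_G15, and all groups overlapped. On the FPKM scale, which allows for length, its level was 10.6 ± 0.845 in sham, while that of Cpa3 was 0.313 ± 0.0611. Of its 2 transcripts in the deposited table, 1 held 972 to 1100 reads in the sham libraries and the other 0 to 20.6. Bulk reads do not show how much of Kit came from mast cells and how much from sensory neurons, in any comparison below.

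The IgE receptor genes were scarce. Ms4a2 (gene ID 25316), the beta chain of the IgE receptor, had 3, 6 and 2 reads in sham, 2, 7 and 3 in SNI and 9, 13 and 14 in SNI_G15. Sham and SNI overlapped, and the SNI_G15 values lay above both. Fcer1a (gene ID 25047), the alpha chain that binds IgE, had 0 to 4 reads in a library and overlapping groups, and no fold is given.

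Hdc (gene ID 24443) encodes histidine decarboxylase, which makes histamine and is known from basophils as well as mast cells. It had 10, 14 and 14 reads in sham, 42, 65 and 51 in SNI and 32, 48 and 40 in SNI_G15. Sham lay below both other groups, which overlapped each other.

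With G15 after injury, 4 of the 10 members rose against injury alone: Cpa3, Cma1, Tpsab1 and Tpsb2. By edgeR's quasi-likelihood test, with p-values adjusted after Benjamini and Hochberg over the genes tested, 7.98% of the 14305 genes that passed the FPKM filter were called higher in SNI_G15 than in SNI. Among the 19828 genes with at least 1 read in these libraries, 5.11% were called higher. Calls with a log2 fold change of at least 2 made up 0.202% of those 19828 genes (40 genes), and 4 of the 40 were these proteases.

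The log2 fold change of SNI_G15 against SNI was 2.43 for Cpa3 (SE 0.37, adjusted p = 0.00342, edgeR) and 3.09 for Cma1 (SE 0.39, adjusted p = 0.00134). It was 2.98 for Tpsb2 (SE 0.43, adjusted p = 0.00284) and 2.96 for Tpsab1 (SE 0.49, adjusted p = 0.00596), each about an 8-fold difference from means under 3 reads in SNI. The ratio of summed reads was 8.13 for Tpsb2 (exact 95% interval 3.89 to 19.6) and 8.20 for Tpsab1 (3.24 to 26.6), intervals that cover counting error only. The median over the 4 genes was 2.97, beside 0.0063 over all genes that passed the FPKM filter.

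Of these genes, Cpa3, Cma1 and Tpsb2, passed the FPKM filter only through the SNI_G15 libraries. In the fit of all genes with at least 1 read, which does not depend on that group, their adjusted p-values were 0.00263, 0.000987 and 0.00212 in edgeR. These calls held without any single library. DESeq2 at its default settings gave these 4 genes no adjusted p, and with its independent filtering off, a setting added after the data were seen, it called all 4.

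The receptor genes did not share this call. Ms4a2 was higher in 3 of 3 SNI_G15 libraries than in any SNI library, with a log2 fold change of 1.57 (SE 0.48), but its adjusted p was 0.0689 in edgeR and ran from 0.0608 to 0.243 over the alternatives. The ratio of its summed reads was 3 (exact 95% interval 1.53 to 6.33, counting error only), in the direction of the proteases. Fcer1a was too scarce for a fold. The SNI_G15 values lay wholly above the SNI values for 5 of the 10 members, and for 13.9% of the 19828 genes. Kit differed by -0.05 on the log2 scale (SE 0.05, adjusted p = 0.551, edgeR), and its ratio of summed reads was 0.961 (exact 95% interval 0.914 to 1.01). Since some sensory neurons also express Kit, this total does not show how Kit in mast cells changed. Hdc differed by -0.38 (SE 0.23, adjusted p = 0.287, edgeR), in overlapping groups.

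After injury alone, 2 of the 10 members were called against sham, Hdc higher and Tpsab1 lower. The background was broad: 45.7% of the 14305 genes that passed the FPKM filter were called in SNI against sham, and 34.1% of the 19806 genes with at least 1 read. A share of 2 in 10 members is below both shares, but 9 of the members were fitted and only 5 passed the FPKM filter. Mcpt2, Fcer1a and Ms4a2 had means of at most 4 reads in both groups, so the count says little about them. Hdc rose by 2.01 on the log2 scale (SE 0.27, adjusted p = 0.00014, edgeR), in 3 of 3 libraries, and this call held under every alternative run. Hdc passed the FPKM filter only through injured libraries. In the fit of all genes with at least 1 read, its adjusted p was 8.18e-05 (edgeR).

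Tpsab1 fell by 1.81 on the log2 scale (SE 0.64, adjusted p = 0.0476, edgeR). Its call was lost without any single library other than SNI 1, with adjusted p-values up to 0.139. Tpsb2 had a log2 fold change of -1.45 (SE 0.59, adjusted p = 0.0661) and Cma1 of -1.20 (SE 0.53, adjusted p = 0.0877), and neither was called in edgeR on the libraries of the pair. With all 9 libraries in one fit, Tpsb2 was called (log2 fold change -1.455, adjusted p = 0.0301, edgeR). Cpa3 had -0.75 (SE 0.51, adjusted p = 0.253), and the median over these 4 proteases was -1.32, beside 0.00102 over all genes that passed the FPKM filter. Library SNI 1 was the highest of the SNI libraries for each of the 4, at a summed 19 reads against 8 and 11.

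In SNI, the receptor genes stood close to sham: the log2 fold change was -0.03 for Kit (SE 0.06, adjusted p = 0.734, edgeR) and 0.09 for Ms4a2 (SE 0.66, adjusted p = 0.943). The ratio of summed Kit reads was 1.001 (exact 95% interval 0.953 to 1.05). For Ms4a2 the interval was 0.441 to 2.73, so a change of about 2-fold either way was not detectable at this depth.

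**Figure D2:**
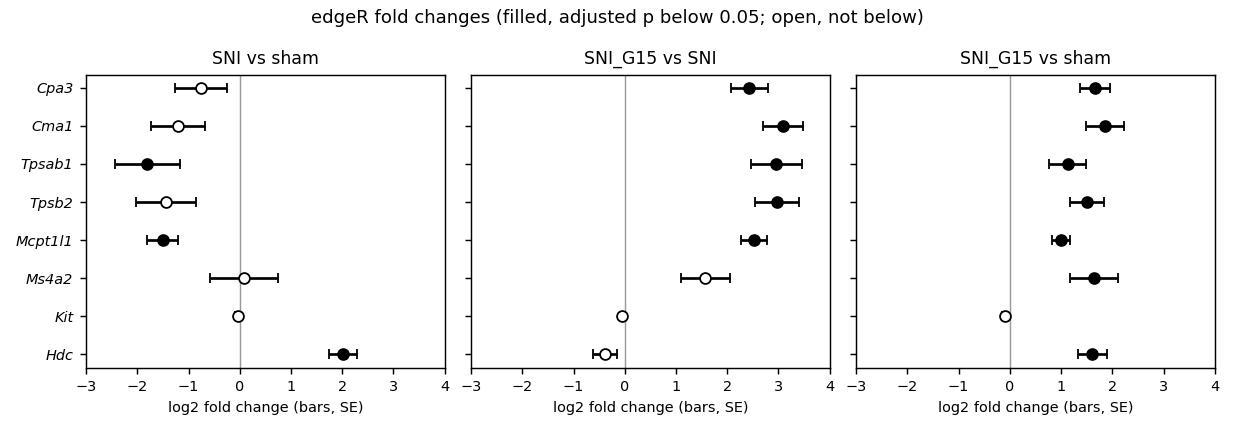
Log2 fold changes (horizontal axes; bars, SE from edgeR) of 8 genes in the 3 comparisons, with filled points where the adjusted p was below 0.05. The proteases lie left of 0 for SNI against sham, with Tpsab1 and Mcpt1l1 filled, and right of 0 in both comparisons of SNI_G15, while Kit lies at -0.03, -0.05 and -0.10.

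Between SNI_G15 and sham, 6 of the 10 members were called and all were higher: the 4 proteases, Ms4a2 and Hdc. Of all genes that passed the FPKM filter, 21.4% were called higher in this comparison, and 16.2% of the 19780 genes with at least 1 read. The comparison shares its SNI_G15 libraries with the one against SNI and its sham libraries with the one of SNI against sham.

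The log2 fold change of SNI_G15 against sham was 1.66 for Cpa3 (SE 0.30, adjusted p = 0.00141, edgeR), 1.86 for Cma1 (SE 0.37, adjusted p = 0.00255) and 1.51 for Tpsb2 (SE 0.33, adjusted p = 0.00426). These 3 calls held under every alternative run. Hdc rose by 1.61 (SE 0.28, adjusted p = 0.00114, edgeR), and its call likewise held. The 3 proteases passed the FPKM filter only through SNI_G15 libraries, and Hdc only through injured ones. In the edgeR fit of all genes with at least 1 read, the adjusted p-values were 0.000906 for Cpa3, 0.0022 for Cma1, 0.00285 for Tpsb2 and 0.000868 for Hdc.

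Tpsab1 had a log2 fold change of 1.13 (SE 0.37, adjusted p = 0.0398, edgeR) and Ms4a2 of 1.63 (SE 0.47, adjusted p = 0.0223). The Tpsab1 call was lost without sham 1, sham 2, SNI_G15 2 or SNI_G15 3, with adjusted p-values up to 0.112. The Ms4a2 call was lost without sham 1, sham 3, SNI_G15 2 or SNI_G15 3, with adjusted p-values up to 0.0784. DESeq2 called neither, at adjusted p-values of 0.205 and 0.098. Kit differed by -0.10 (SE 0.06, adjusted p = 0.262, edgeR).

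The share of each of the 4 proteases in their summed reads had overlapping intervals between the groups. With 38 reads in SNI, these intervals are wide and could hide a difference of moderate size. Cpa3 held 28.4% of the 88 summed reads of the 4 proteases in sham (exact 95% interval 19.3 to 39.0%), 39.5% of 38 in SNI (24.0 to 56.6%) and 29.8% of 275 in SNI_G15 (24.5 to 35.6%). Cma1 held 26.1% in sham (17.3 to 36.6%) and 31.6% in SNI_G15 (26.2 to 37.5%). Tpsab1 held 20.45% in sham, 13.16% in SNI and 14.91% in SNI_G15, and Tpsb2 held 25%, 21.05% and 23.64%. The summed reads of the 4 genes were 33, 28 and 27 in sham, 19, 8 and 11 in SNI and 93, 81 and 101 in SNI_G15.

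The related protease genes fell into sets with different patterns. Mcpt1l1 (gene ID 100360872), for which RefSeq lists Mcpt1, a chymase of connective tissue mast cells, among its synonyms, had 38, 42.97 and 31 estimated reads in sham, 19.01, 10 and 11 in SNI and 70.98, 77.97 and 79.99 in SNI_G15. The groups did not overlap, in the same order as for the member chymase and tryptases. Its log2 fold change was -1.51 for SNI against sham (SE 0.31, adjusted p = 0.00242, edgeR), 2.52 for SNI_G15 against SNI (SE 0.25, adjusted p = 0.00049) and 0.99 for SNI_G15 against sham (SE 0.18, adjusted p = 0.00132). All 3 calls held under every alternative run, and its estimated reads were not whole in 5 of 9 libraries, as reads shared with a near copy can be.

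Mcpt8, a granule protease known from basophils, had 21.11, 7.81 and 15.5 reads in sham, 51.5, 45.22 and 42.99 in SNI and 27.18, 61 and 80.54 in SNI_G15. It rose after injury by 1.60 on the log2 scale (SE 0.31, adjusted p = 0.00179, edgeR), and for SNI_G15 against SNI its difference was 0.28 (SE 0.34, adjusted p = 0.597). Gzmb, the granule protease of cytotoxic lymphocytes, ranged from 0 to 6.99 reads among sham libraries, from 39.67 to 94.37 with SNI and from 57.7 to 83.09 with SNI_G15. Mcpt9 ranged from 1.05 to 2.37, from 5.78 to 13.21 and from 7.94 to 11.69. Both were called for SNI against sham (edgeR, adjusted p = 0.0106 for Mcpt9 and 0.000222 for Gzmb), and the Mcpt9 call was lost without SNI 2 (adjusted p = 0.0627). Reads of Mcpt8, Mcpt9 and Gzmb were not whole in 7 to 9 of the libraries, so copies of these multigene families are uncertain.

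**Figure D3:**
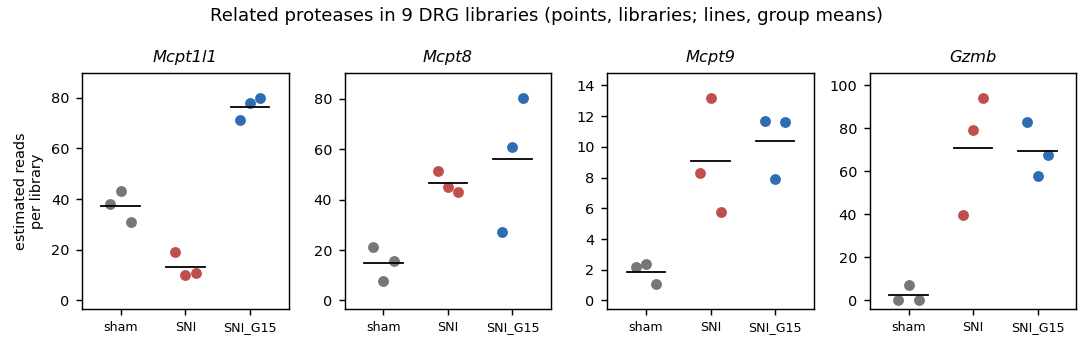
Estimated reads per library (vertical axes, each scaled to its gene) of 4 related protease genes in sham, SNI and SNI_G15; points are libraries and lines are means of 3. Mcpt1l1 is lowest in SNI (10 to 19.01) and highest in SNI_G15 (70.98 to 79.99), while Mcpt8, Mcpt9 and Gzmb are lowest in sham and overlap between SNI and SNI_G15.

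In SNI against sham, 45.7% of all genes that passed the FPKM filter were called in either direction. Of the 7 related proteases that passed it, 4 were higher in SNI and 1 lower. Those higher were Gzmb, Mcpt8, Mcpt9 and Mcpt8l2, the last named after its values were seen, and the one lower was Mcpt1l1. Against SNI, 1 of the 7 was higher in SNI_G15, again Mcpt1l1, where 15.2% of all genes that passed the FPKM filter were called in either direction. Against sham, 6 of the 7 were higher in SNI_G15, where that share was 43.2%. Gzmb, Mcpt8l2 and Mcpt9 passed the FPKM filter only through injured libraries. Mcpt8l3, also named after its values were seen, passed only through SNI_G15 1 (FPKM 1.19), so these counts depend in part on the groups compared. In the edgeR fit of all genes with at least 1 read, the adjusted p-values for SNI against sham were 0.000159 for Gzmb, 0.00917 for Mcpt9 and 0.0216 for Mcpt8l2.

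Of 14 genes of IgE receptor signalling, 10 were higher and 1 lower in SNI than in sham and 3 were not called, where 45.7% of all genes that passed the FPKM filter were called in either direction (median log2 fold change 0.79, beside 0.00102 over all genes). Fcer1g, the gamma chain shared with other Fc receptors and also expressed by macrophages, rose by 1.02 (SE 0.07, adjusted p = 7.7e-07, edgeR). The kinase genes Lyn and Syk rose by 1.17 (SE 0.09) and 1.13 (SE 0.11). Syk passed the FPKM filter only through injured libraries, as did Plcg2, Btk and Lat, named after their values were seen. The counts of this list thus depend in part on the groups compared. In the edgeR fit of all genes with at least 1 read, adjusted p-values were 1.42e-05 for Syk, 0.0006 for Plcg2, 0.0177 for Btk and 0.122 for Lat. Of the macrophage markers, 10 of 11 rose as well, and their summed level was 252 to 271.5 CPM in sham libraries against 519.4 to 537.1 CPM with SNI, with none at 0. Their part in the result was not tested.

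Against SNI, edgeR called none of the 14 signalling genes higher in SNI_G15 and 1 lower, DESeq2 called none, and at an unadjusted p below 0.05 edgeR had 0 higher and 2 lower (median -0.02, beside 0.0063 over all genes). The one lower was Lyn, at -0.23 (SE 0.06, adjusted p = 0.044, edgeR), a call lost in DESeq2 (adjusted p = 0.185) and on leaving out any 1 of 5 of the 6 libraries. Fcer1g differed by 0.10 (SE 0.06, adjusted p = 0.271). Against sham, 8 of the 14 were higher in SNI_G15 and 2 lower, where 43.2% of all genes were called.

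Of 9 tested genes of the granule matrix and of amine handling, 6 were not called in SNI against sham and 6 were not called in SNI_G15 against SNI. In each comparison 2 were higher and 1 lower, a share below the 45.7% of all genes called in SNI against sham and above the 15.2% in SNI_G15 against SNI. In SNI_G15 against SNI, Cd63, a granule membrane protein found in many cells, rose by 0.36 (SE 0.07, adjusted p = 0.0091, edgeR). Vamp8, a fusion protein of granule release, rose by 0.71 (SE 0.13, adjusted p = 0.00895), and Rab27b, a GTPase of granule transport, fell by 0.53 on the log2 scale (SE 0.10, adjusted p = 0.0117). The Cd63 call was lost without SNI 2 (adjusted p = 0.0517) and the Rab27b call without SNI 3 (adjusted p = 0.0545). Srgn, whose product serglycin holds proteases in the granule, rose by 0.35 in SNI against sham (SE 0.09, adjusted p = 0.00694, edgeR), while Slc18a2, the vesicular monoamine transporter, fell by 0.29 on the log2 scale (SE 0.04, adjusted p = 0.000346). Against sham, 3 of the 9 were higher and 3 lower in SNI_G15 by edgeR, and 2 and 2 by DESeq2.

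Of 5 genes of lipid mediator synthesis, none was called in SNI_G15 against SNI by edgeR or DESeq2, where edgeR called 15.2% of all genes. An unadjusted p below 0.05 in edgeR was seen for 2, both higher. By edgeR, 2 were higher in SNI than in sham, Pla2g4a and Alox5, where 45.7% of all genes were called in either direction. Pla2g4a, which frees arachidonic acid, rose by 1.24 in SNI (SE 0.22, adjusted p = 0.000943, edgeR). It passed the FPKM filter only through injured libraries. In the edgeR fit of all genes with at least 1 read, its adjusted p was 0.000693. Alox5, the 5-lipoxygenase, had 0.43 (SE 0.16, adjusted p = 0.0453), a call lost in DESeq2 (adjusted p = 0.149) and without any single library other than sham 3. Against sham, edgeR called 4 of the 5 higher in SNI_G15, where 21.4% of all genes were called higher, and DESeq2 called 1. The 4 were Pla2g4a, Alox5, Alox5ap and Ltc4s. On leaving out 1 library, the call was lost in 4 of 6 fits for Alox5 (adjusted p up to 0.0863), in 5 of 6 for Ltc4s (up to 0.138) and in 1 of 6 for Alox5ap, while that of Pla2g4a held under every alternative run.

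Of 10 genes of mast cell growth and maturation, 6 were higher and 1 lower in SNI than in sham, where 45.7% of all genes were called, and 3 were higher and 1 lower in SNI_G15 than in SNI, where 15.2% were. DESeq2 called 6 higher and none lower in the first comparison, and 1 higher and none lower in the second. The gene lower in SNI was Runx1, a transcription factor named after its values were seen, at -0.18 (SE 0.07, adjusted p = 0.0468, edgeR) in overlapping groups. The gene lower in SNI_G15 than in SNI was Stat5b, a signal transducer of cytokine receptors, at -0.24 (SE 0.06, adjusted p = 0.0266, edgeR), a call lost in 4 of 6 fits that left out 1 library (adjusted p up to 0.105) and under 3 of 10 other settings. Il33, an alarmin that activates mast cells, rose by 0.56 with injury (SE 0.05, adjusted p = 4.3e-06, edgeR) and by a further 0.25 in SNI_G15 against SNI (SE 0.04, adjusted p = 0.00574). Csf2rb, the shared receptor chain for interleukin-3 and related cytokines, rose by 1.77 with injury (SE 0.11, adjusted p = 4.1e-07). Tgfb1 rose by 0.27 in SNI_G15 against SNI (SE 0.07, adjusted p = 0.032, edgeR) and Il3ra by 0.37 (SE 0.10, adjusted p = 0.0368), and DESeq2 called neither. Both calls were also lost without any single SNI library, that of Tgfb1 without SNI_G15 1 (adjusted p-values up to 0.115) and that of Il3ra without SNI_G15 2 or SNI_G15 3 (up to 0.138). Of 5 receptors for mast cell products, 2 were lower in SNI than in sham, where 45.7% of all genes were called. They were the histamine receptor Hrh3 and the thrombin receptor F2r. Against SNI, where 15.2% of all genes were called, 1 was lower in SNI_G15, again F2r. The F2r difference of -0.16 (SE 0.05, adjusted p = 0.0491, edgeR) lost its call without any single library other than SNI_G15 3, at adjusted p-values up to 0.161.

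Markers of other cells moved between SNI and SNI_G15 too, in both directions. All 10 fibroblast markers were higher in SNI_G15 by edgeR and 8 by DESeq2, where 7.98% of all genes were called higher (median log2 fold change 0.44, beside 0.0063 over all genes). Their sum went from 1492 to 1502 CPM in SNI to 1989 to 2011 CPM in SNI_G15, with 1527 to 1564 CPM in sham and none at 0. Of the 8 mesothelial and arachnoid markers listed, 4 were tested, of which 2 were higher and 1 lower, and the sum over all 8 was 15.83 to 16.79 CPM in SNI and 17.85 to 22.25 CPM in SNI_G15.

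Erythroid markers went the other way. The 6 tested, among them the haemoglobin gene Hbb and the band 3 gene Slc4a1, were all lower in SNI_G15 than in SNI by edgeR and DESeq2 (median log2 fold change -1.22), after all 6 were higher in SNI than in sham (median 1.90). Of all genes that passed the FPKM filter, edgeR called 15.2% in SNI_G15 against SNI and 45.7% in SNI against sham. The sum over the 7 erythroid markers in the table was 63.44 to 65 CPM in sham, 212 to 217.2 CPM in SNI and 123.3 to 143 CPM in SNI_G15. Of 7 Schwann cell markers, 5 were higher in SNI_G15 than in SNI by edgeR and 3 by DESeq2, from 6203 to 6329 CPM to 6645 to 6954 CPM. Of 7 tested T cell markers, 2 were higher (Cd4 and Cd8a) and 2 lower (Cd3d and Cd3e), and DESeq2 called 1 in each direction. Cd3e, a chain of the T cell receptor complex, fell by 1.69 on the log2 scale (SE 0.32, adjusted p = 0.01, edgeR).

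Relative to their sham means, the fibroblast CPM reached up to 1.3 times in SNI_G15 libraries, the erythroid CPM 1.922 to 2.228 times, and the summed reads of the 4 proteases 2.76 to 3.44 times. The part of these cells in the protease result was not tested.

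Beside Hdc, the 4 tested basophil and eosinophil markers (Prg2, Prg3, Epx and Mcpt8) rose in SNI against sham, where 45.7% of all genes were called. The sum over the 6 markers of this list in the table was 3.732 to 4.546 CPM in sham, 11.76 to 12.56 CPM in SNI libraries and 8.483 to 12.18 CPM in SNI_G15 libraries. Against SNI, where 15.2% of all genes were called, 1 of the 4 was lower in SNI_G15, the eosinophil peroxidase gene Epx. No marker of this list was at 0 in all libraries of a comparison, and the part of these cells in the Hdc result was not tested.

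**Figure D4:**
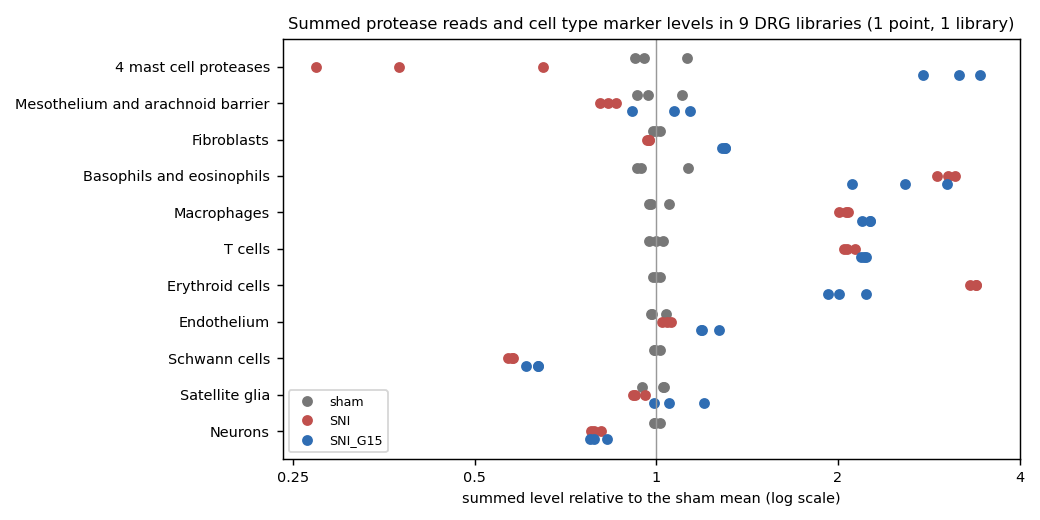
Summed reads of the 4 proteases (Cpa3, Cma1, Tpsab1 and Tpsb2) and summed CPM of 10 marker lists, each divided by its sham mean (horizontal axis, log scale; 1 point is 1 library). The proteases lie at 0.273 to 0.648 in SNI and 2.76 to 3.44 in SNI_G15, a range wider than that of any marker list shown. The sums of basophil and eosinophil, macrophage, T cell and erythroid markers are raised in both injured groups, the erythroid sum less so in SNI_G15. In the T cell list, Cd4 had by far the most reads, a mean of 693.6 in sham and 1484 in SNI. Of 7 tested T cell markers, edgeR called 4 higher in SNI than in sham. Between SNI_G15 and sham, 2 of them were called higher and 5 were not called.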

How the data were processed

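DRG RNA of 3 sham, 3 SNI and 3 SNI_G15 samples was analysed, from paired 150 bp reads per the study's methods. The authors deposited FPKM values and estimated counts per gene and transcript. The estimated counts carry no normalization and may hold fractions, and gene FPKM adds up the transcripts' FPKM. Columns named for a control were taken as sham. The aligner and annotation are not given in the sources used here, and the labels name mouse builds for rat data, so no coordinates are given for the values. Promoter windows and names came from RefSeq (GRCr8), matched by gene ID.

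Counts were rounded and tested in each pair of groups in edgeR 4.0.16 (R 4.3.3) by the quasi-likelihood method after TMM scaling, with Benjamini-Hochberg adjustment over all genes tested. Genes had to reach an FPKM of 1 in 1 or more samples (14305 genes). Tpsab1, Ms4a2, Fcer1a, Mcpt2 and Mcpt4 are below that filter and came from another fit, without the FPKM filter, of every gene with a count in the libraries compared, in which p-values were adjusted over those genes. A call is an adjusted p below 0.05. Means at or under 3 counts per library in both groups gave no fold. The steps were tested on simulated data with the same spread setting for every gene and changes only in genes averaging at least 3 counts. That test does not cover wider spreads or lower counts. Alternatives used DESeq2 1.42.0, limma 3.58.1, other normalizations and filters, all 9 libraries, the replicate number as a block, and leaving out each library.

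The members and lists were chosen with earlier results of these data known. All members are named, with up to 4 genes per pathway list by adjusted p. The authors' own comparisons and plots were not used.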

Additional observations from a re-analysis of the deposited data

How the results depend on the processing

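The calls of Cpa3, Cma1, Tpsab1 and Tpsb2 in SNI_G15 against SNI held wherever an adjusted p was given. For SNI against sham, the count of members called went from 2 to 1 with DESeq2 (filtering on or off), with library totals only, with filterByExpr (which fitted 2 members) and with the replicate block, rose to 3 with all 9 libraries in one fit, where Tpsb2 was called as well (adjusted p = 0.0301), and leaving out 1 library gave 1 to 2. For SNI_G15 against SNI, DESeq2 called 0 of the 2 members it gave an adjusted p (Kit and Hdc); unadjusted p-values were below 0.05 for 5 members, and edgeR and unfiltered DESeq2 called 4. Leaving out 1 library gave 4 in each case, and 4 to 6 for SNI_G15 against sham.

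With limma-trend on log2(FPKM + 1), the median log2 change of the 4 proteases was -0.25, 0.83 and 0.62 for SNI against sham, SNI_G15 against SNI and SNI_G15 against sham, and with log2(FPKM + 0.1) it was 2.25 for SNI_G15 against SNI, since the added value shrinks changes of low genes. Leaving out 1 library gave medians of -1.60 to -1.10, 2.65 to 3.303 and 1.51 to 1.69. Kit in SNI against sham changed sign to 0.0024 with library totals, 0.0088 and 0.0097 with limma, and ran from -0.079 to 0.0281 over the libraries left out. Ms4a2 there ran from -0.56 to 0.62.

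Replicate numbers did not pair the libraries: same-numbered libraries correlated at -0.13 to 0.07. With the replicate block, 1, 4 and 5 members were called in the same order of comparisons. Counts under 10 per library limit the proteases in sham and SNI.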

Other observations

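Over the 9 libraries, deviations from the mean of all libraries on the log2(CPM + 1) scale were set against those of Cpa3, as a description that the group differences dominate. Among 14309 genes, Tpsb2 was the most like it after Fbln1, with r = 0.979, and Cma1 ranked 12 (r = 0.958), Tpsab1 59 (r = 0.924) and Ms4a2 647 (r = 0.766). Hdc had r = 0.0457 and Kit r = -0.311. Bgn, Kcnj16, Matn2, Msln, Col3a1, Dcn, Myh7b and Gsto2 filled the other places among the first 10, and several of them encode matrix proteins of connective tissue.

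Within groups, the likeness was of another kind. With deviations from the group means, the 10 genes most like Cpa3 were B4gat1, Trem2, Cntrl, Mul1, Dhx16, Pgm5, Dusp15, Cyb5d1, Taf6l and Ubap1, with r from 0.917 to 0.98. Tpsb2 had r = 0.611, Kit 0.451, Cma1 0.33, Tpsab1 0.181, Ms4a2 -0.727 and Hdc -0.859 by this measure. The values of low genes depend on the added value: on the log2(CPM + 0.1) scale Tpsab1 had r = 0.587 and Tpsb2 0.755, with Cma1 at 0.401, Kit at 0.429, Ms4a2 at -0.739 and Hdc at -0.803. At 3 to 29 reads of Cpa3 in a library, these values within groups carry counting error and share depth.

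Named after their values were seen, a mesothelial and a receptor gene had large differences beside the proteases. Msln, which encodes mesothelin, had a mean of 12.3 reads in sham, 4 in SNI and 71 in SNI_G15, with a log2 fold change of 4.12 for SNI_G15 against SNI (SE 0.30, adjusted p = 8.7e-05, edgeR). Adora3, an adenosine receptor known from mast cells, went the other way, at 7.80 ± 1.88 reads in sham, 12.1 ± 3.09 in SNI and 1.73 ± 1.15 in SNI_G15 (mean ± SD, n = 3). Its adjusted p was 0.0103 for SNI_G15 against SNI in the edgeR fit of all genes with at least 1 read, and its estimated reads were not whole in 9 of 9 libraries.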
